A study of Mus musculus with 4 samples.

Results

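Selectin ligand and core-2 glycan genes, 10 in number, which build the glycans recognised by selectins or carry them, were followed in Th2 cells made with or without SH-2251. They are Gcnt1, Fut7, Fut4, St3gal1, St3gal3, St3gal4, St3gal6, Selplg, B4galt1 and Tpst2, which makes 10 of the 18539 genes that the arrays' probes could be matched to. The group was chosen from measured values, after the signal of Gcnt1 had been seen only in the SH-2251-treated cells, and its other 9 genes are glycosyltransferase, sulfotransferase and ligand genes of the same pathway. The SH-2251 differences of Gcnt1 are therefore a description of how the group came about.

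The cells were CD4 T cells from the spleens of female C57BL/6J mice. All of them received plate-bound anti-TCR-β mAb at 3 µg/ml and anti-CD28 mAb at 1 µg/ml over 2 days. IL-4 at 10 ng/ml and IL-2 at 2.5 ng/ml were also added. The cells were then kept for 3 further days in both cytokines without the anti-TCR-β and anti-CD28 antibodies. The study's methods also list an anti-IFN-γ mAb among the Th2 conditions. SH-2251, a small thioamide-related molecule that the study examined for its effect on IL-5, was present in both phases or left out (control), and each culture was then either left unstimulated or restimulated for 4 h with immobilized anti-TCR-β mAb. By the labels, SH-2251 was used at 1 µM in the first phase and at 1 mM in the second, whereas the study's methods give a lower dose unless another is mentioned, and they name naïve CD4 T cells as the starting cells. RNA of each of the 4 conditions was hybridised to 1 Agilent whole mouse genome array, and the 4 arrays were on 1 slide and were read in 1 scan. With a single array each, the conditions cannot be tested against each other, and how far cultures of 1 condition vary is unknown. In these bulk samples, fewer cells that express a gene and less RNA per cell cannot be told apart.

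Selectins are adhesion receptors that slow leukocytes on the vessel wall, and their best known ligand on T cells is PSGL-1, the product of Selplg. Binding of PSGL-1 to P-selectin relies largely on O-glycans branched by the core-2 enzyme that Gcnt1 encodes. These are extended with galactose, and capped with sialic acid and fucose to form sialyl Lewis x. Sulfation of its tyrosines adds to binding by P-selectin. Th1 cells are known to carry more of this functional ligand than Th2 cells, and Gcnt1 and Fut7 are the enzymes on which that contrast is usually said to rest.

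The signals below are log2 intensities minus the 75th percentile of the same array, so that 0 is the level of a bright probe of that array. A probe that the scanner software did not mark as well above background has no measured level, and a difference from it is given as a bound. The technical SD beside a difference was computed from the error that the scanner software estimates for each spot, and it holds no variation between cultures. Over the genes compared its median was 0.204 on the log2 scale in both SH-2251 comparisons, and 54.2% of all genes in the unstimulated and 53.2% in the restimulated comparison differed by less than their technical SD. The 10 genes had 18 probes, none of which was saturated or marked as an outlier. Levels of different probes are not set against each other, since each probe has its own brightness.

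Because 3 of the genes passed 2-fold in both states, all higher with SH-2251, the promoter windows that RefSeq gives for them are shown here. Each window runs from 250 bases before to 50 bases after an annotated transcript start, in build GRCm38.p6, and is written 5′ to 3′ on the strand of the gene. Windows were found for 8 of the 10 genes, 14 in all. Capitals mark every match, on either strand, of 4 motifs of factors known in Th2 cells, which were AAATCA for GFI1, AGATAA for GATA factors, TGANTCA for AP-1 and, for STAT6, TTC and GAA with a spacer of 4 bases.
Gcnt1 window, chr19:17372795-17373094, minus strand: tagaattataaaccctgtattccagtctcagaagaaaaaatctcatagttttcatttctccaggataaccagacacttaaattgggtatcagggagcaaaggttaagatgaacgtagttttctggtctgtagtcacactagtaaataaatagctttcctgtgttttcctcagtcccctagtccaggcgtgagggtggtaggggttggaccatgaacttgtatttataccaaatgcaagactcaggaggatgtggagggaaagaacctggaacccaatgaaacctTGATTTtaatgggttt
Gcnt1 window, chr19:17356618-17356917, minus strand: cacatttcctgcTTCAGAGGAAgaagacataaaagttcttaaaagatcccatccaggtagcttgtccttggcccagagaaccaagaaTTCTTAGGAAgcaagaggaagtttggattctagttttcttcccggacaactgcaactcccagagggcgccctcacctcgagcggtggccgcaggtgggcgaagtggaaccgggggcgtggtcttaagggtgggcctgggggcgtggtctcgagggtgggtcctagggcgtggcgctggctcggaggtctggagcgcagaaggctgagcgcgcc
Gcnt1 window, chr19:17339456-17339755, minus strand: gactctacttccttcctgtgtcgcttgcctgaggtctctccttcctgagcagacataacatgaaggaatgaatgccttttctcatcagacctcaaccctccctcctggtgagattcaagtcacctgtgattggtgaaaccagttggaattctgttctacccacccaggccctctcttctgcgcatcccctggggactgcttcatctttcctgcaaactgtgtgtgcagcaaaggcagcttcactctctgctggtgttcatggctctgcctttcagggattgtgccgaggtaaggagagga
Fut7 window, chr2:25422992-25423291, plus strand: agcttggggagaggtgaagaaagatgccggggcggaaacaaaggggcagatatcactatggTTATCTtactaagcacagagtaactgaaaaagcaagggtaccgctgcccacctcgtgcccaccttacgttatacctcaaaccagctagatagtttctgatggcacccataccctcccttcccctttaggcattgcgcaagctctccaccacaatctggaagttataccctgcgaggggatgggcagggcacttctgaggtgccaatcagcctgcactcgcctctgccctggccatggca
Fut7 window, chr2:25423444-25423743, plus strand: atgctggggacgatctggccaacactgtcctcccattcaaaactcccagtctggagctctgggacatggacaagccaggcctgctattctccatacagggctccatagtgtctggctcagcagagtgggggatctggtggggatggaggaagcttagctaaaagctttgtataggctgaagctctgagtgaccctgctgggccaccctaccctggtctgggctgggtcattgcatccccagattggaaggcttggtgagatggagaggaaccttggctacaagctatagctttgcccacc
Fut4 window, chr9:14752073-14752372, minus strand: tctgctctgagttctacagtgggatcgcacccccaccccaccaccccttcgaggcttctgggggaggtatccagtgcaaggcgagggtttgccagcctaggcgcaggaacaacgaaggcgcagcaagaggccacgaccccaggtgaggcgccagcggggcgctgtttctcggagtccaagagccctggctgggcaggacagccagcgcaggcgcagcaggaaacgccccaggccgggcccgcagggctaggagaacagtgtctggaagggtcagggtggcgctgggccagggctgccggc

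In the Gcnt1 windows the capitals are a GFI1 match that begins at base 35 after the start site in the first window, and a pair of STAT6 matches that begin at bases -238 and -163 in the second. The third holds none of the 4 motifs. The capitals in the first Fut7 window are a GATA match that begins at base -189, and the second Fut7 window and the Fut4 window hold none. Of the 32851 windows of all genes, 14% held the GFI1 motif, 11.2% the GATA motif, 7.81% the AP-1 motif and 6.95% the STAT6 motif. Of the 14 windows of the group, 2 held the GFI1 motif, 2 the GATA motif, 0 the AP-1 motif and 1 the STAT6 motif. A match describes letters in the window and no binding was measured.

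Gcnt1, the core-2 branching enzyme, was read by 3 probes, all of which were well above background on both SH-2251 arrays and none on a control array. The log2 signal of its brightest probe (NM_173442) was -5.53 in the unstimulated control, -0.12 in unstimulated SH-2251-treated cells, -4.71 in the restimulated control and 1.43 in restimulated SH-2251-treated cells. The values of the second probe (NM_010265) were, in the same order, -6.85, -2.15, -4.50 and -0.39. Those of the third probe, for the same transcript, were -6.04, -2.48, -5.63 and -0.54. On each of these probes both SH-2251 arrays lay above both control arrays.

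Bounds were set against the lowest signal that still counted as well above background on the control array. By these, the 3 Gcnt1 probes were higher in unstimulated SH-2251-treated cells by at least 24.3-fold, 5.98-fold and 4.75-fold. After restimulation the bounds were 68.0-fold, 17.3-fold and 17.3-fold, the second of them set against the probe's own, higher control signal of -4.50. On the log2 scale those of the brightest probe were 4.60 and 6.09. Under normexp, a model-based background correction, they were 2.76 and 4.02 (2.71 and 4.02 without spots of uneven local background). Of the 13156 genes well above background on at least 1 array, 73 (0.555%) had the same pattern of detection as Gcnt1. The opposite one, with detection in both controls and not with SH-2251, was that of 105. Within the SH-2251-treated cells, restimulation was accompanied by a higher Gcnt1 signal on all 3 probes, by 1.56 (technical SD 0.205), 1.76 (technical SD 0.212) and 1.94 (technical SD 0.217) on the log2 scale. For the control cells no such difference can be given, as neither array measured the transcript.

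**Figure D1:**
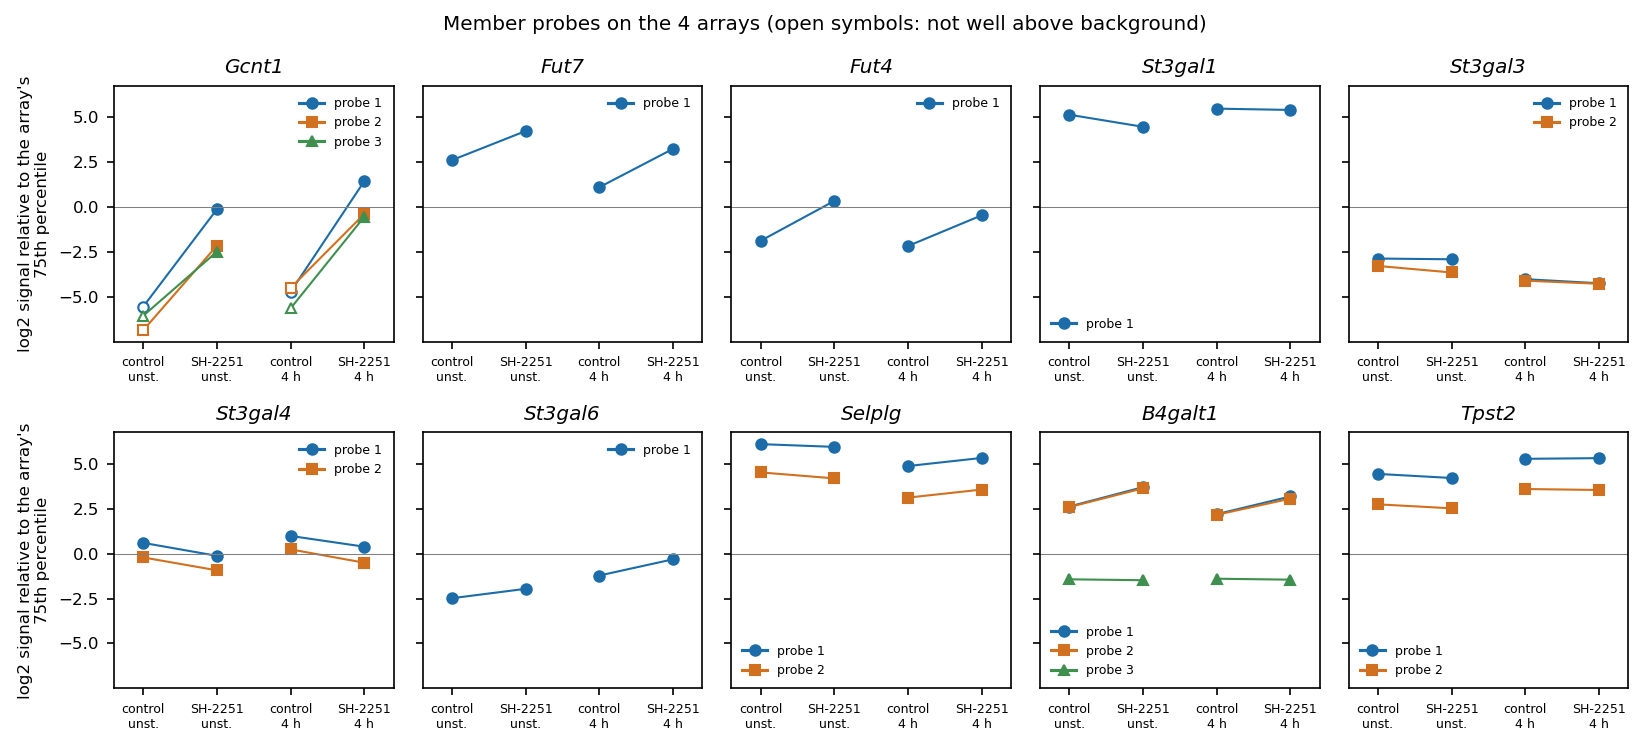
Log2 signal (0 is the 75th percentile of each array) of every probe of the 10 genes on the 4 arrays (unst., unstimulated; 4 h, restimulated with anti-TCR-β mAb for 4 h), with 1 symbol per probe and array, open where the probe was not well above background; lines join control and SH-2251 within a state. Gcnt1 is open on both control arrays and reaches -0.12 and 1.43 with SH-2251 on its brightest probe, Fut7 and Fut4 are higher with SH-2251 in both states, and the third B4galt1 probe lies between -1.48 and -1.40.

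Fut7 encodes the fucosyltransferase that completes sialyl Lewis x in leukocytes. Its log2 signal was 2.61 in the unstimulated control, 4.23 with SH-2251, 1.10 in the restimulated control and 3.23 with SH-2251 after restimulation. Both SH-2251 arrays were above both control arrays, and within each treatment the restimulated array was the lower one. SH-2251-treated cells had 3.07-fold higher signal when unstimulated, a log2 difference of 1.62 (technical SD 0.204). When restimulated they had 4.38-fold higher signal, a log2 difference of 2.13 (technical SD 0.204). Under normexp these differences were 1.31 and 2.02 (1.58 and 2.02 without uneven spots). Restimulation went with a log2 difference of -1.51 in the control and -0.99 in the SH-2251-treated cells, so that the restimulated SH-2251 array lay 0.52 (technical SD 0.289) further above its control than the unstimulated one.

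Fut4, a second fucosyltransferase able to act on these glycans, had log2 signals of -1.88 in the unstimulated control, 0.34 with SH-2251, -2.17 in the restimulated control and -0.46 with SH-2251 after restimulation. The order of the 4 arrays was that of Fut7, with both SH-2251 arrays above both controls. Unstimulated SH-2251-treated cells had 4.65-fold higher signal than their control (log2 difference 2.22, technical SD 0.211). After restimulation it was 3.26-fold higher (log2 difference 1.71, technical SD 0.216). Under normexp these differences were 1.69 and 1.20 (1.70 and 1.20 without uneven spots). The 2 control arrays differed by -0.29 (technical SD 0.221), close to the technical SD, and the 2 SH-2251 arrays by -0.80 (technical SD 0.205). The SH-2251 difference was thus smaller after restimulation by 0.51 on the log2 scale (-0.51, technical SD 0.302), the opposite of Fut7.

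B4galt1, which adds the galactose on which sialic acid is placed, had 3 probes that did not agree. On the brightest the log2 signal was 2.62 in the unstimulated control, 3.69 with SH-2251, 2.19 in the restimulated control and 3.17 with SH-2251 after restimulation. Its SH-2251 differences were 1.08 (2.11-fold) in the unstimulated and 0.99 (1.98-fold) in the restimulated cells, each with a technical SD of 0.204. The second probe gave 1.04 and 0.90. Under normexp the unstimulated difference of the brightest probe was 0.79 (1.06 without uneven spots). The third and dimmest probe lay between -1.48 and -1.40 on all 4 arrays, and its differences of -0.05 in both states were within its technical SD of 0.209. Restimulation went with lower signal of the brightest probe in both treatments, with log2 differences of -0.43 in the control and -0.52 with SH-2251.

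The sialyltransferases differed in direction. St3gal6, which caps the galactose of the extended branch, had log2 signals of -2.48 in the unstimulated control, -1.96 with SH-2251, -1.22 in the restimulated control and -0.32 with SH-2251 after restimulation. Its SH-2251 differences were 0.52 (technical SD 0.218) and 0.90 (technical SD 0.206), and restimulation was accompanied by 2.40-fold higher signal in the control and 3.12-fold higher signal in the SH-2251-treated cells. These log2 differences of 1.26 and 1.64 were 0.86 and 0.85 under normexp (0.86 and 1.26 without spots of uneven local background). St3gal4, which acts at the same step, ran the other way. Its brighter probe read 0.59 in the unstimulated control, -0.13 with SH-2251, 0.98 in the restimulated control and 0.38 with SH-2251 after restimulation. The differences with SH-2251 were -0.72 and -0.60 on that probe and -0.72 and -0.74 on the second, each beyond a technical SD of 0.204 to 0.206 and short of 2-fold.

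St3gal3, also a sialyltransferase of extended chains, was dim, and its brighter probe read -2.86 in the unstimulated control, -2.90 with SH-2251, -4.01 in the restimulated control and -4.24 with SH-2251 after restimulation. The SH-2251 differences of -0.04 (technical SD 0.249) and -0.23 (technical SD 0.382) were within the technical SD. Both restimulated arrays were below both unstimulated ones, with 2.22-fold lower signal in the control and 2.52-fold lower signal with SH-2251, and the second probe was lower by 1.76-fold and 1.54-fold. The log2 difference of the brighter probe in the control, -1.15, was -0.37 under normexp with or without uneven spots. With SH-2251 it was -1.33, and -0.63 under normexp without uneven spots.

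St3gal1 caps core-1 O-glycans with sialic acid and so competes with the core-2 enzyme for its substrate. The log2 signal of its single probe was 5.13 in the unstimulated control, 4.46 with SH-2251, 5.47 in the restimulated control and 5.40 with SH-2251 after restimulation. The unstimulated SH-2251 array was the lowest of the 4, at 62.8% of its control (log2 difference -0.67, technical SD 0.204). After restimulation the 2 arrays differed by -0.07, within the technical SD.

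Selplg, the gene of PSGL-1 itself, read 6.08 in the unstimulated control, 5.93 with SH-2251, 4.87 in the restimulated control and 5.32 with SH-2251 after restimulation on its brighter probe. Both restimulated arrays lay below both unstimulated ones. With SH-2251 the difference was -0.15 (technical SD 0.204) in the unstimulated and 0.45 (technical SD 0.204) in the restimulated cells. The second probe gave -0.33 and 0.45. Restimulation went with 2.33-fold lower signal in the control cells and 1.53-fold lower signal in the SH-2251-treated cells on the brighter probe, and with 2.64-fold and 1.54-fold lower signal on the second.

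Tpst2 encodes one of the enzymes that sulfate tyrosines of PSGL-1. Its brighter probe read 4.43 in the unstimulated control, 4.20 with SH-2251, 5.27 in the restimulated control and 5.31 with SH-2251 after restimulation. Here the arrays separated by restimulation, with 1.79-fold higher signal after 4 h in the control and 2.15-fold higher signal with SH-2251. The SH-2251 difference was -0.23 (technical SD 0.204) in the unstimulated cells and 0.04 in the restimulated cells, and the second probe gave -0.22 and -0.05.

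Over the group, 4 of 10 genes (Gcnt1, Fut7, Fut4 and B4galt1) were higher by 2-fold or more in unstimulated SH-2251-treated cells and 0 were lower by as much, where 2.22% of 12683 genes were that much higher and 2.9% that much lower. In the restimulated cells 3 of 10 were at least 2-fold higher and 0 lower, where 2.65% of 12622 genes were higher and 2.78% lower. Since the group was chosen for the Gcnt1 difference in these contrasts, nothing is read from these shares. The median log2 difference of the group was 0.24 in the unstimulated and 0.68 in the restimulated cells, and that of all genes was -0.06 in both. In both states 5 of the genes were higher with SH-2251, 3 were lower and 2 (Selplg and Tpst2) differed in direction. Some of these directions rest on differences within the technical SD. They were those of St3gal3 in both states, St3gal1 and Tpst2 after restimulation, and Selplg in the unstimulated cells. The second Tpst2 probe was lower in both states. Gcnt1, Fut7 and Fut4 passed 2-fold in both states, as did 1.23% of 12149 genes, and none of the group was 2-fold lower in both, as 1.37% of genes were.

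The shares over all genes moved with the background correction. Under normexp, 694 genes were at least 2-fold higher and 162 lower with SH-2251 in the unstimulated cells, 81.1% of them higher, where the main processing gave 282 and 368, 43.4% of them higher. With 15 spots of uneven local background left out, the same correction gave 122 and 189, 39.2% of them higher.

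**Figure D2:**
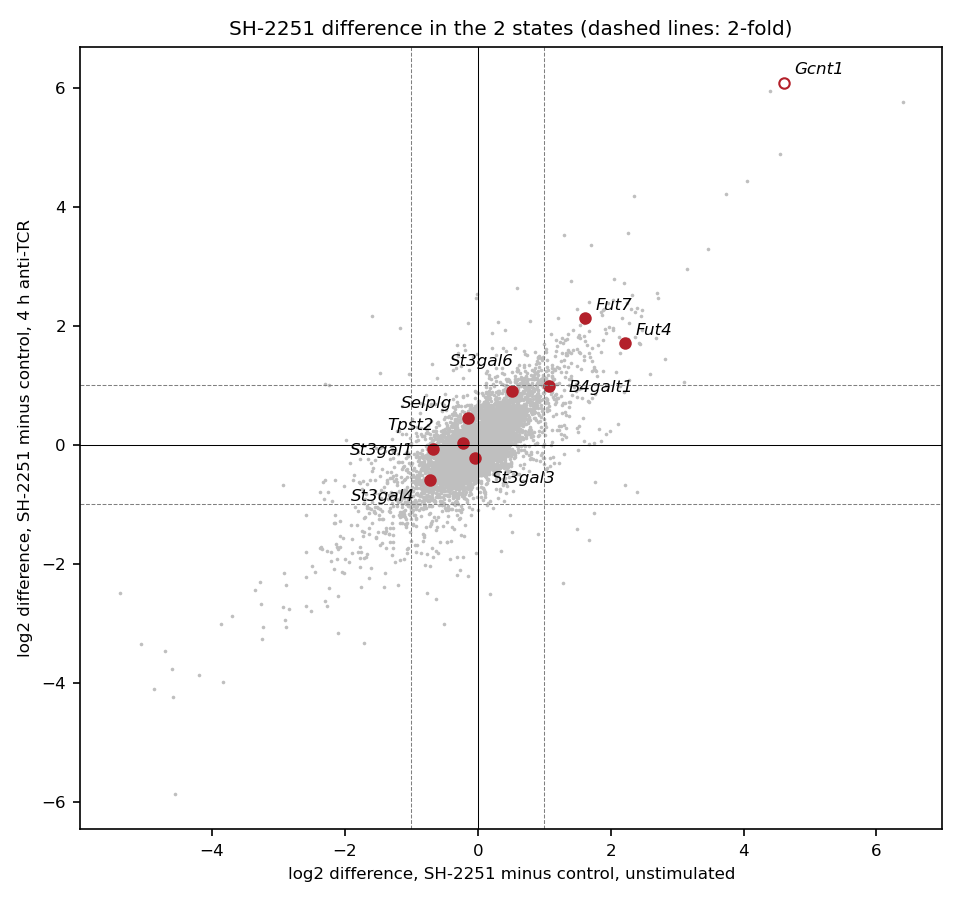
Log2 difference between SH-2251 and control in the unstimulated cells (horizontal axis) and after 4 h of restimulation (vertical axis), for all genes compared in both states (grey points) and the 10 genes (red, open for Gcnt1, whose 2 values are bounds); dashed lines mark 2-fold. Gcnt1 lies at 4.60 and 6.09, Fut7 at 1.62 and 2.13, Fut4 at 2.22 and 1.71, and St3gal4 at -0.72 and -0.60.

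Across the 4 h of restimulation, 1 of the 9 genes that could be compared in the control cells (St3gal6) was at least 2-fold higher and 3 (Fut7, St3gal3 and Selplg) were at least 2-fold lower, where 7.2% of 12757 genes were higher and 7.34% lower. In the SH-2251-treated cells 3 of 10 (Gcnt1, St3gal6 and Tpst2) were at least 2-fold higher and 1 (St3gal3) was lower, where 7.09% of 12613 genes were higher and 6.98% lower. The median log2 difference of the group was -0.29 in the control and -0.01 in the SH-2251-treated cells, and that of all genes was -0.06 and -0.05. The SH-2251 comparisons and the restimulation comparisons share arrays and are not independent of each other. Under normexp, 731 genes were higher and 1511 lower in the SH-2251-treated cells, 32.6% of them higher, where the main processing gave 894 and 881, 50.4% of them higher.

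**Figure D3:**
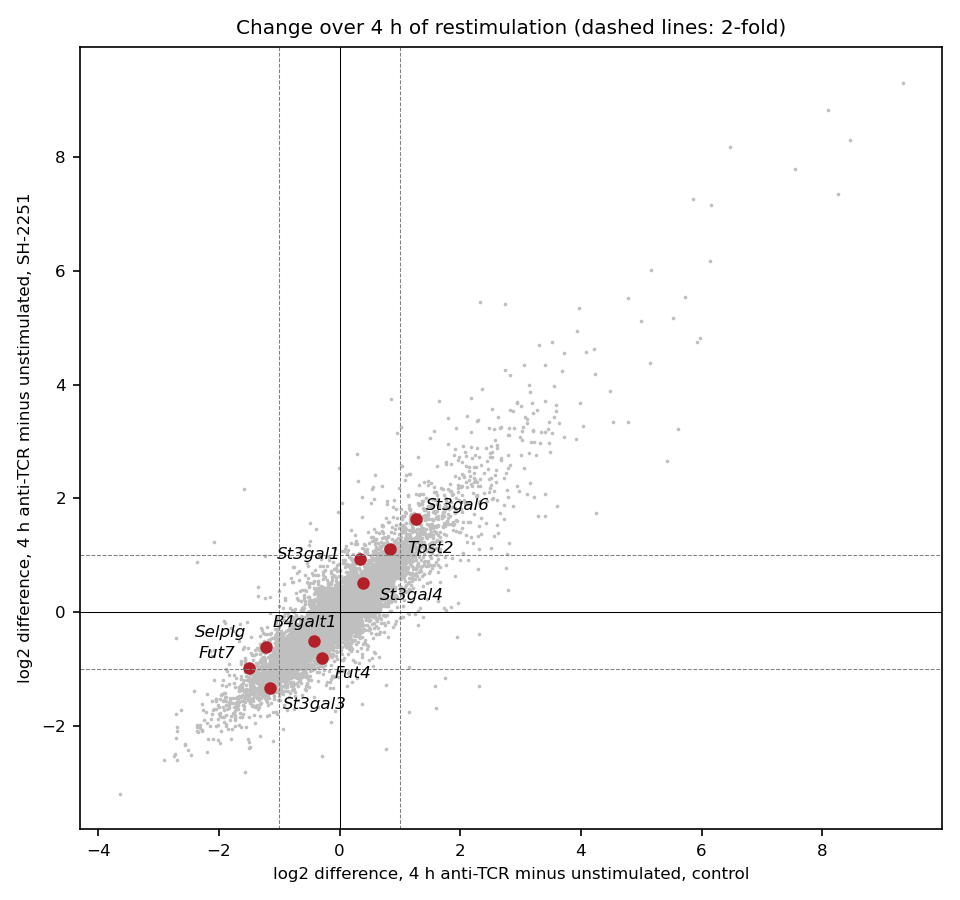
Log2 difference between restimulated and unstimulated cells in the control (horizontal axis) and with SH-2251 (vertical axis), for all genes compared in both treatments (grey points) and for 9 of the 10 genes (red); dashed lines mark 2-fold. Gcnt1 is absent because neither control array measured it, St3gal6 lies at 1.26 and 1.64, Fut7 at -1.51 and -0.99, and Selplg at -1.22 and -0.62.

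The wider pathway was described with 77 further genes in 7 lists, of which 74 were matched on the arrays. With SH-2251, 1 of the 60 that could be compared in the unstimulated cells was at least 2-fold higher (1.67%, where 2.22% of all genes were). In the same cells 2 were lower (3.33%, against 2.9%). In the restimulated cells 2 of 61 were higher (3.28%, against 2.65%) and 2 were lower (3.28%, against 2.78%). Across restimulation, 4 of 62 in the control were higher by 2-fold or more (6.45%, where 7.2% of all genes were) and 8 were lower (12.9%, against 7.34%). With SH-2251, 6 of 61 were higher (9.84%, against 7.09%) and 7 were lower (11.5%, against 6.98%). The median log2 SH-2251 difference of the pathway genes was -0.06 in the unstimulated and -0.09 in the restimulated cells, where that of all genes was -0.06 in both.

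Among the enzymes that start O-glycans, Galnt3 was not measured in the unstimulated control. It was higher with SH-2251 by at least 2.52-fold, a log2 bound of 1.33. Under normexp the bound was 1.24 (0.36 without spots of uneven background). After restimulation Galnt3 was 1.41-fold higher (log2 difference 0.50, technical SD 0.214). C1galt1, the core-1 synthase that makes the substrate of Gcnt1, differed by 0.36 (technical SD 0.211) and 0.39 (technical SD 0.207). In the list of lactosamine extension 1 of 10 genes passed 2-fold after restimulation, B4galt5, where 2.65% of all genes were that much higher. Its log2 difference was 1.02 after restimulation, and 0.64 under normexp with or without uneven spots. In the unstimulated cells it was 0.23, and 1.00 under normexp (0.10 without uneven spots). None of the genes of fucose supply passed 2-fold, and the one with the largest mean difference was Fut8, the core fucosyltransferase of N-glycans, at -0.53 and -0.39. Fut7 and Fut4 thus stood beside a list of 10 compared genes with a median of -0.14 in the unstimulated and of 9 with a median of -0.13 in the restimulated cells.

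St6gal1, which places sialic acid on the same galactose in another linkage, read 3.26 in the unstimulated control, 3.98 with SH-2251, 1.21 in the restimulated control and 2.45 with SH-2251 after restimulation. Its SH-2251 differences were 0.71 and 1.24, each with a technical SD of 0.204. In the sulfate list 2 of 7 genes were at least 2-fold lower with SH-2251 in the unstimulated cells, where 2.9% of all genes were, and 2 of 8 after restimulation, where 2.78% were. They were Papss2 and Chst2 in both states. Papss2, which makes the sulfate donor that Tpst2 also uses, differed by -2.46 (technical SD 0.354) in the unstimulated cells and was lower by at least 4.40-fold after restimulation, where the SH-2251 array did not measure it. Chst2, which sulfates the N-acetylglucosamine of some selectin ligands, differed by -1.20 (technical SD 0.360) and -2.36 (technical SD 0.335). Both were dim. Under normexp the Papss2 differences were -0.07 and -0.88 (-1.15 and -0.87 without uneven spots). Those of Chst2 were 0.56, with the sign turned, and -1.08 (-0.58 and -1.08 without uneven spots), and as the mean of its probes Chst2 came to -0.80 after restimulation.

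**Figure D4:**
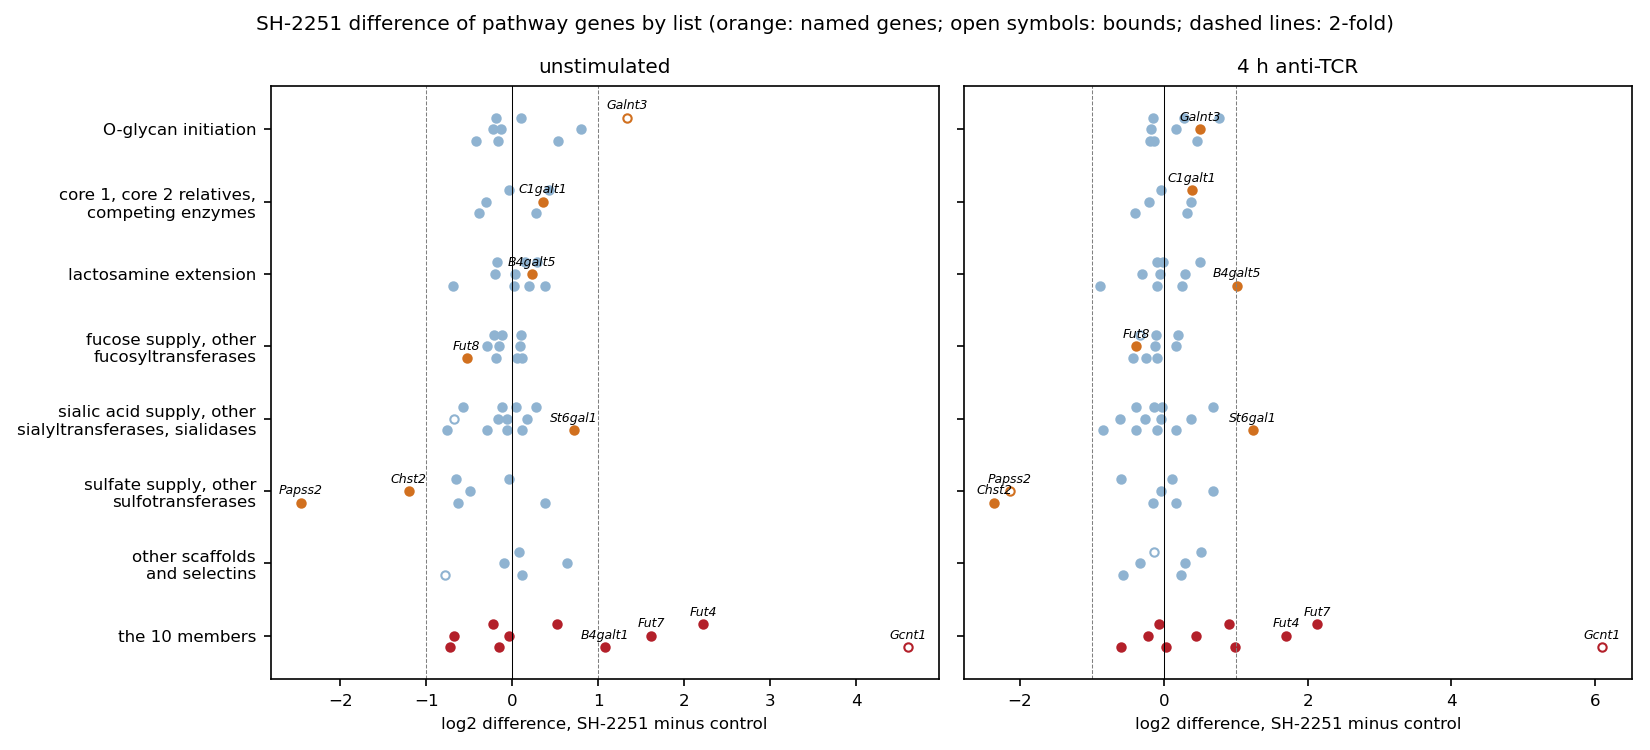
Log2 difference between SH-2251 and control for the reported genes of the 7 pathway lists and for the 10 genes (bottom row, red), in unstimulated (left) and restimulated cells (right); each point is 1 gene, orange where named in the text, open where the value is a bound, spread vertically only for legibility, with dashed lines at 2-fold. Most list genes lie inside the dashed lines, with Papss2 at -2.46 and -2.14, Chst2 at -1.20 and -2.36, and St6gal1 at 0.71 and 1.24.

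The genes whose 4 values were most like those of Gcnt1, among 13156 genes and by the root mean square distance after each gene's own mean was taken off, were Trpm6 (0.122 on the log2 scale), Itgae (0.528), Wls (0.678), Slpi (0.729) and Ccr10 (0.833). Trpm6 encodes a magnesium channel, Itgae the αE integrin chain CD103, Wls a carrier of Wnt proteins, Slpi a protease inhibitor and Ccr10 a chemokine receptor of skin- and mucosa-homing lymphocytes. Trpm6 and Ccr10 were, like Gcnt1, not well above background in the controls on the probe used. As the control values of Gcnt1 itself were floored, the distances of all these genes rest on floored values. Itgae read -1.21 and 3.33 in the unstimulated and -1.20 and 3.69 in the restimulated control and SH-2251-treated cells.

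The labelled cell type was checked against its markers. All 8 T and Th2 cell markers (Cd3e, Cd3d, Cd3g, Cd4, Gata3, Il4, Il5 and Il13) were well above background on all 4 arrays, with a summed intensity of 127721 in the unstimulated control, 132117 with SH-2251, 294269 in the restimulated control and 282942 with SH-2251 after restimulation. With SH-2251, 2 of the 8 were at least 2-fold lower in the unstimulated cells and 1 after restimulation. These were Il5, with log2 differences of -3.86 and -3.01, and Il13, with -1.32 and -0.57. Of 6 B cell markers 5 were as well (all but Pax5), with a summed intensity of 2615 in the unstimulated control, 3297 with SH-2251, 1867 in the restimulated control and 3368 with SH-2251 after restimulation. Of 5 CD8 T and NK cell markers 2 were (Cd8a and Klrd1), with sums of 174, 285, 164 and 317 in the same order, while Ncr1, Klrb1c and Klrk1 were not. The Cd8a log2 signal was -3.53, -2.07, -2.82 and -1.85. Both sums, which were not scaled between arrays, were thus higher with SH-2251 within each state, as Gcnt1, Fut7, Fut4 and St6gal1 were, and their part in those differences was not tested. Of 8 myeloid markers 3 or 4 were above background, with sums between 1437 and 1789. Adgre1, Csf1r and Cd14 were on all 4 arrays and Mpo on all but the restimulated control. Lyz2, Itgam, S100a8 and S100a9 were not on any array. The Adgre1 log2 signal was 1.30, 1.20, 1.42 and 1.51 in the same order. Of 6 endothelial markers 1 or 2 were above background, with sums between 724 and 1304. Pecam1 was on all 4 arrays and Selp on all but unstimulated SH-2251, while Cdh5, Kdr, Sele and Emcn were not on any. With SH-2251 Pecam1 differed by -1.02 in the unstimulated and -0.48 in the restimulated cells.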

How the data were processed

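Total RNA (500 ng per sample) had been amplified, labelled with Cy3 and hybridised to 4 single-dye Agilent arrays. For each array the authors deposited a scanner file from Feature Extraction 10.7.3.1, per the file headers (10.7 per the labels), whose processed intensity had been corrected for background by that software. They also deposited a table of log2 values, normalized with the Subio Platform. It equals the log2 intensity minus a constant for between 99.6% and 99.7% of probes on each array (tolerance 0.01), its 75th percentile is 0 and its medians are -3.72, -3.78, -3.70 and -3.74, so that it is the same scale as used here.

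Control spots and spots marked as outliers (77 to 106 per array) were left out, spots of a probe were averaged, and log2 intensity minus the 75th percentile of the array was computed. On the 4 arrays, 56.0% to 56.7% of 41174 probes passed the software's mark for well above background. The spots of probes printed about 10 times differed by a median SD of 0.0468 to 0.0552 (log2). Through RefSeq accessions, 27198 probes (66.1%) were matched to 18539 genes, and a gene is its probe with the highest mean signal. The table of names is for GRCm38.p6 and the arrays were designed on another build, so it was used for names only. The probe sequences were not analysed here.

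Comparisons needed this mark on 1 or both arrays of the pair. A value without the mark was replaced by the array's lowest marked signal, unless it was itself above that, and the difference is then a bound. No test was made. The 10 genes and all gene lists were chosen with earlier results of these data known. The genes named are the 10 with all their probes, from each pathway list those at least 2-fold different with SH-2251 in either state or else the one with the largest mean absolute difference, and the 5 most like Gcnt1. Of the genes this rule names, 1 is not reported here. Alternatives were median centring, quantile normalization, the authors' table, normexp with an offset of 50 on median spot signals (with and without spots of uneven background), other filters, the mean of all probes and thresholds of 1.5-fold and 3-fold. The code was also run on simulated data with set changes of more than 2-fold. These were built from probes well above background on all 4 arrays, with only the scanner software's error added. The simulation held no variation between cultures and so does not cover it. The software was R 4.3.3 (limma 3.58.1) and Python 3.11.15 (numpy 2.4.6, pandas 2.3.3, matplotlib 3.10.9).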

Additional observations from a re-analysis of the deposited data

Results flagged for a closer look

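The second Selplg probe was lower with SH-2251 in the unstimulated cells (log2 difference -0.33) and higher in the restimulated cells (0.45), each beyond the technical SD of 0.204. The brighter probe gave -0.15, within its technical SD, and 0.45. The difference between the states was 0.78 (technical SD 0.289) on the second and 0.60 (technical SD 0.289) on the brighter probe, and with 1 array per condition it was not tested.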

How the results depend on the processing

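Each value rests on 1 array, so that leaving out a replicate was not possible, and the technical SD does not cover differences between cultures. No paired analysis was possible because each condition has a single array. Of the recomputed differences of the 10 genes, 313 moved by less than their technical SD, 36 by more, and 0 that had been beyond it changed sign; 19 of the 36 were under normexp, 10 under normexp without uneven spots, 5 under the mean of all probes and 1 each under quantile normalization and without filter or bound. The St3gal3 difference in the unstimulated cells, within its technical SD, was 0.75 under normexp (0.03 without uneven spots). The Gcnt1 difference ran from 2.71 to 5.41 in the unstimulated and from 4.02 to 6.15 in the restimulated cells, and could not be given where both arrays had to be above background. B4galt1 came to 0.69 and 0.61 as the mean of its 3 probes.

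The number of genes past the threshold with SH-2251 in the restimulated cells was 6 at 1.5-fold (3 at 2-fold). Across restimulation in the control cells it was 4, and 2 under normexp with or without uneven spots, where St3gal3 and St3gal6 no longer passed, and 0 at 3-fold. In the SH-2251-treated cells it was 4, and 8 at 1.5-fold and 1 at 3-fold. Among the other named genes, the unstimulated Chst2 difference turned to 0.56 under normexp (-0.58 without uneven spots). Of the values of these genes, 33 moved by more than the technical SD and 176 by less. Counts over all genes that moved by over 1.5 times were as follows, higher genes first. With neither filter nor bound they were 623 and 798 with SH-2251 in the unstimulated cells, 677 and 950 in the restimulated cells, and 1308 and 1421 across restimulation with SH-2251. Normexp gave 149 and 161 with SH-2251 in the restimulated cells (149 and 159 without uneven spots) and 629 and 443 across restimulation in the control (628 and 442), and without uneven spots 658 and 440 across restimulation with SH-2251. In the order unstimulated, restimulated, restimulation of control and of SH-2251-treated cells, the 1.5-fold threshold gave 773 and 945, 871 and 902, 1914 and 2366, and 1871 and 2385, and the 3-fold threshold 101 and 142, 102 and 144, 379 and 194, and 396 and 145.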
